A study of Mus musculus with 3 samples.

Results

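The genes described here are 9 rod phototransduction and disc genes, *Gnat1*, *Gngt1*, *Pde6a*, *Pde6b*, *Pde6g*, *Cnga1*, *Sag*, *Rom1* and *Prph2*, chosen by symbol out of the 33696 genes in the count tables, and each symbol matched 1 row. They were followed in single cells of the mouse retina at postnatal day 6, in rods called maturing or immature, and, as a measure of free RNA, in endothelial cells (ECs) and microglia. There were 3 libraries, 1 for each genotype on a C57BL/6 background. The first was from wild-type mice (WT). The second was from mice lacking *Tspan12* (Tspan12 KO), which encodes a tetraspanin that takes part in Norrin/β-catenin signaling. The last was from mice with *Ctnnb1*, which encodes β-catenin, deleted in ECs (Ctnnb1 cKO), carrying *Ctnnb1* flox/flox and *Pdgfb*-iCreER and given tamoxifen intraperitoneally in the first days of life. Wild-type pups came from other litters than the knockouts, and each library pooled the retinas of several pups of both sexes, so animal, litter, library preparation and genotype cannot be told apart. The cells were enriched with CD31 and CD11b beads, which capture ECs and myeloid cells, so every rod in these libraries is a cell that the enrichment did not remove. With 1 library per genotype no difference between genotypes could be tested. All intervals below are 95% intervals that cover counting error only, and UMIs (unique molecular identifiers) of 1 cell or of 1 library are not replicates.

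Rods turn light into a change of membrane current. Light-activated visual pigment switches on transducin, whose α subunit in rods is encoded by *Gnat1* and whose γ subunit is encoded by *Gngt1*. Transducin relieves the block that the inhibitory γ subunits (*Pde6g*) place on the catalytic α and β subunits (*Pde6a*, *Pde6b*) of the phosphodiesterase, cyclic GMP is broken down, and the cyclic nucleotide-gated channel, whose α subunit is encoded by *Cnga1*, closes. Arrestin (*Sag*) ends the signal of the pigment. *Prph2* and *Rom1* encode tetraspanins of the rim of the outer segment discs, the membranes on which this machinery sits. In the mouse, most rods are born around birth and their outer segments grow in the following weeks, so at the age sampled here rods have no fully grown outer segments.

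Upstream sequence was found in RefSeq for 6 of the 9 genes, taken as the 250 bases before the gene start on GRCm38.p6, and was searched on both strands for a CRX-type motif (TAATCC, or GGATTA on the other strand) and for an NRL or Maf half-site (TGCTGA, or TCAGCA). CRX and NRL are transcription factors of photoreceptors and of rods. The CRX-type letters were found in 3 of the 6 promoters, those of *Gngt1*, *Cnga1* and *Sag*, and in 6.25% of 32851 promoters of the same length. The half-site letters were found in 2 of the 6, *Pde6b* and *Sag*, and in 16.1% of all promoters. *Rom1* and *Prph2* held neither in this window, which says nothing about whether these factors act on them. A match is a description of letters and not a binding site. The 4 sequences shown are those of the channel and transducin genes, which were among the 3 genes furthest apart between the 2 rod states in the WT library, and of the pair of disc rim genes, which were among the 3 closest. *Pde6b*, also among the 3 closest, held a half-site 8 bases before the gene start, and *Sag*, with both motifs, lay between. *Pde6g*, among the 3 furthest, had no sequence. A link between letters and rod state was not tested. The sequences shown follow. Those shown are *Cnga1* (chr5:72642753-72643002, minus strand), *Gngt1* (chr6:3993758-3994007, plus strand), *Rom1* (chr19:8929357-8929606, minus strand) and *Prph2* (chr17:46910228-46910477, plus strand), each written 5′ to 3′ along its gene, with a CRX-type match in capitals. The *Cnga1* match begins 228 bases before the gene start and the *Gngt1* match 44 bases before it.
Cnga1: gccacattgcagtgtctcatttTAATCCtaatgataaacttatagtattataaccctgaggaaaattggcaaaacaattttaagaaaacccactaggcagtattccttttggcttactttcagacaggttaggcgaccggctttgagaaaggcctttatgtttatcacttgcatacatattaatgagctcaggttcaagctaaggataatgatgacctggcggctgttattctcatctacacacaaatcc
Gngt1: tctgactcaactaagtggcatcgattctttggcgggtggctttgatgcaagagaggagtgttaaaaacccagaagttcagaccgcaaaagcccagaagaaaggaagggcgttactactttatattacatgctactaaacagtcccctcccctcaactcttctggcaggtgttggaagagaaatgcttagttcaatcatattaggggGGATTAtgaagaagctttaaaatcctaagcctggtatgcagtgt
Rom1: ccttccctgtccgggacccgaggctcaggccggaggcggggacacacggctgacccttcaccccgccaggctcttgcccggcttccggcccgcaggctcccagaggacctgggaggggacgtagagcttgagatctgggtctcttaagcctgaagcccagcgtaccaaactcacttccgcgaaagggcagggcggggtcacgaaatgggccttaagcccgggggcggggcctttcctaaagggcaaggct
Prph2: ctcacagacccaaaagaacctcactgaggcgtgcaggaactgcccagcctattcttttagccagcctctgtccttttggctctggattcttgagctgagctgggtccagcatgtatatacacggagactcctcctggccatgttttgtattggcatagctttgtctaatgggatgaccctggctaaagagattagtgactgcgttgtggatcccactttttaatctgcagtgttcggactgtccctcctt

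The libraries held 9951 (WT), 14426 (Tspan12 KO) and 9151 (Ctnnb1 cKO) cell barcodes, of which 8989, 12732 and 8451 were kept. Over all barcodes, before filtering, the median depths were 4974, 3166 and 2790 UMIs and the median mitochondrial shares 2.31%, 1.80% and 0.374%. Their part in the differences below was not tested. Between 21 and 37 barcodes were shared by each pair of libraries. Clusters that led with rod markers (*Nrl*, *Nr2e3*, *Crx* and others, none of them a member) held 1620, 3290 and 89 cells. Of these, 744, 1508 and 24 fell into maturing and 363, 456 and 10 into immature subclusters, by the sign of a list of 17 maturing rod genes such as *Rp1* and *Tulp1*. The mean log2 fold of that list over the other rods was 0.31 in the larger maturing subcluster (1976 cells of all libraries). It was 0.49 in the smaller (300 cells) and -0.52 in the immature one. Genes outside the list, such as *4930419G24Rik* and *2310030A07Rik*, led the larger subcluster. Without doublet removal, a subcluster led by *Angpt1* and *Robo2*, as the immature rods were, scored 0.07 and was called maturing. *Nrl*, the transcription factor that sets rod fate, was at 897, 866 and 1092 UMIs per 1000000 UMIs of the group (CPM) in the maturing and at 630.0, 669 and 803 CPM in the immature rods, against 19.4, 45.3 and 18.7 CPM in ECs. The 9 members were kept out of the genes that formed the clusters. The immature rods were much deeper, with median UMIs of 14716, 11830 and 12718 against 4159, 2180.5 and 5026.5 in the maturing rods, so levels are given in CPM. A further subcluster of 505, 1269 and 55 cells was left out of both states because its 10 leading genes held more markers of another class than of rods, and so was a small one led by haemoglobin. Rods so defined are few in the Ctnnb1 cKO library, and in each library part of the cells with rod markers stayed in unnamed clusters described further on. Of these, clusters 5 and 24 passed 6 and 7 of 14 rod markers against the named cells other than photoreceptors. They held 57 and 1716 Ctnnb1 cKO cells, against the 89 named rods. The Ctnnb1 cKO rod values below thus leave out most cells of that library with rod markers. The targeted genes were read in ECs. *Tspan12* stood at 95.9, 84.1 and 39.3 CPM and *Ctnnb1* at 524, 600.1 and 425 CPM in the WT, Tspan12 KO and Ctnnb1 cKO libraries. Since 3′ tags can lie outside the deleted part, these values do not check the labels.

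All 9 members were detected in the maturing and the immature rods of each library. *Gnat1*, the transducin α subunit, was at 15.4, 18.4 and 16.3 CPM in the maturing rods (values here and below in the order WT, Tspan12 KO, Ctnnb1 cKO), the last from 2 UMIs, and at 8.22, 10.7 and 7.3 CPM in immature rods, the last from 1 UMI. *Gngt1* was at 936, 996 and 929 CPM in maturing rods and at 417, 576 and 438 CPM in immature rods. Both transducin genes were thus lower in the immature rods of every library, although the 2 *Gnat1* values of the Ctnnb1 cKO rest on too few UMIs to be compared.

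The catalytic subunits of the phosphodiesterase were both present. *Pde6a* was at 54.7, 68.3 and 48.9 CPM in maturing and at 27.7, 32.9 and 21.9 CPM in immature rods, and *Pde6b* was at 459, 613 and 847 CPM and at 294, 411 and 453 CPM. *Pde6b* was thus lowest in WT and highest in Ctnnb1 cKO in both states. The inhibitory subunit *Pde6g* was at 1060, 981 and 611 CPM in maturing and at 484, 613 and 373 CPM in immature rods, with the Ctnnb1 cKO lowest in both. The channel gene *Cnga1* was at 308, 306 and 432 CPM in maturing rods and 140, 160.1 and 234 CPM in immature rods.

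Arrestin was at 2369, 2555 and 2297 CPM in maturing and at 1311, 1566 and 1198 CPM in immature rods. The disc rim gene *Rom1* was at 1744, 1574 and 1157 CPM and at 1176, 1194 and 818 CPM, and its partner *Prph2* at 949, 864 and 782 CPM and at 593, 575 and 577 CPM. The libraries lie within a factor of about 2 of each other for every member, in both states. UMIs from 3′ tags are not scaled to transcript length and capture differs between genes, so levels of different members are not ranked here.

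**Figure D1:**
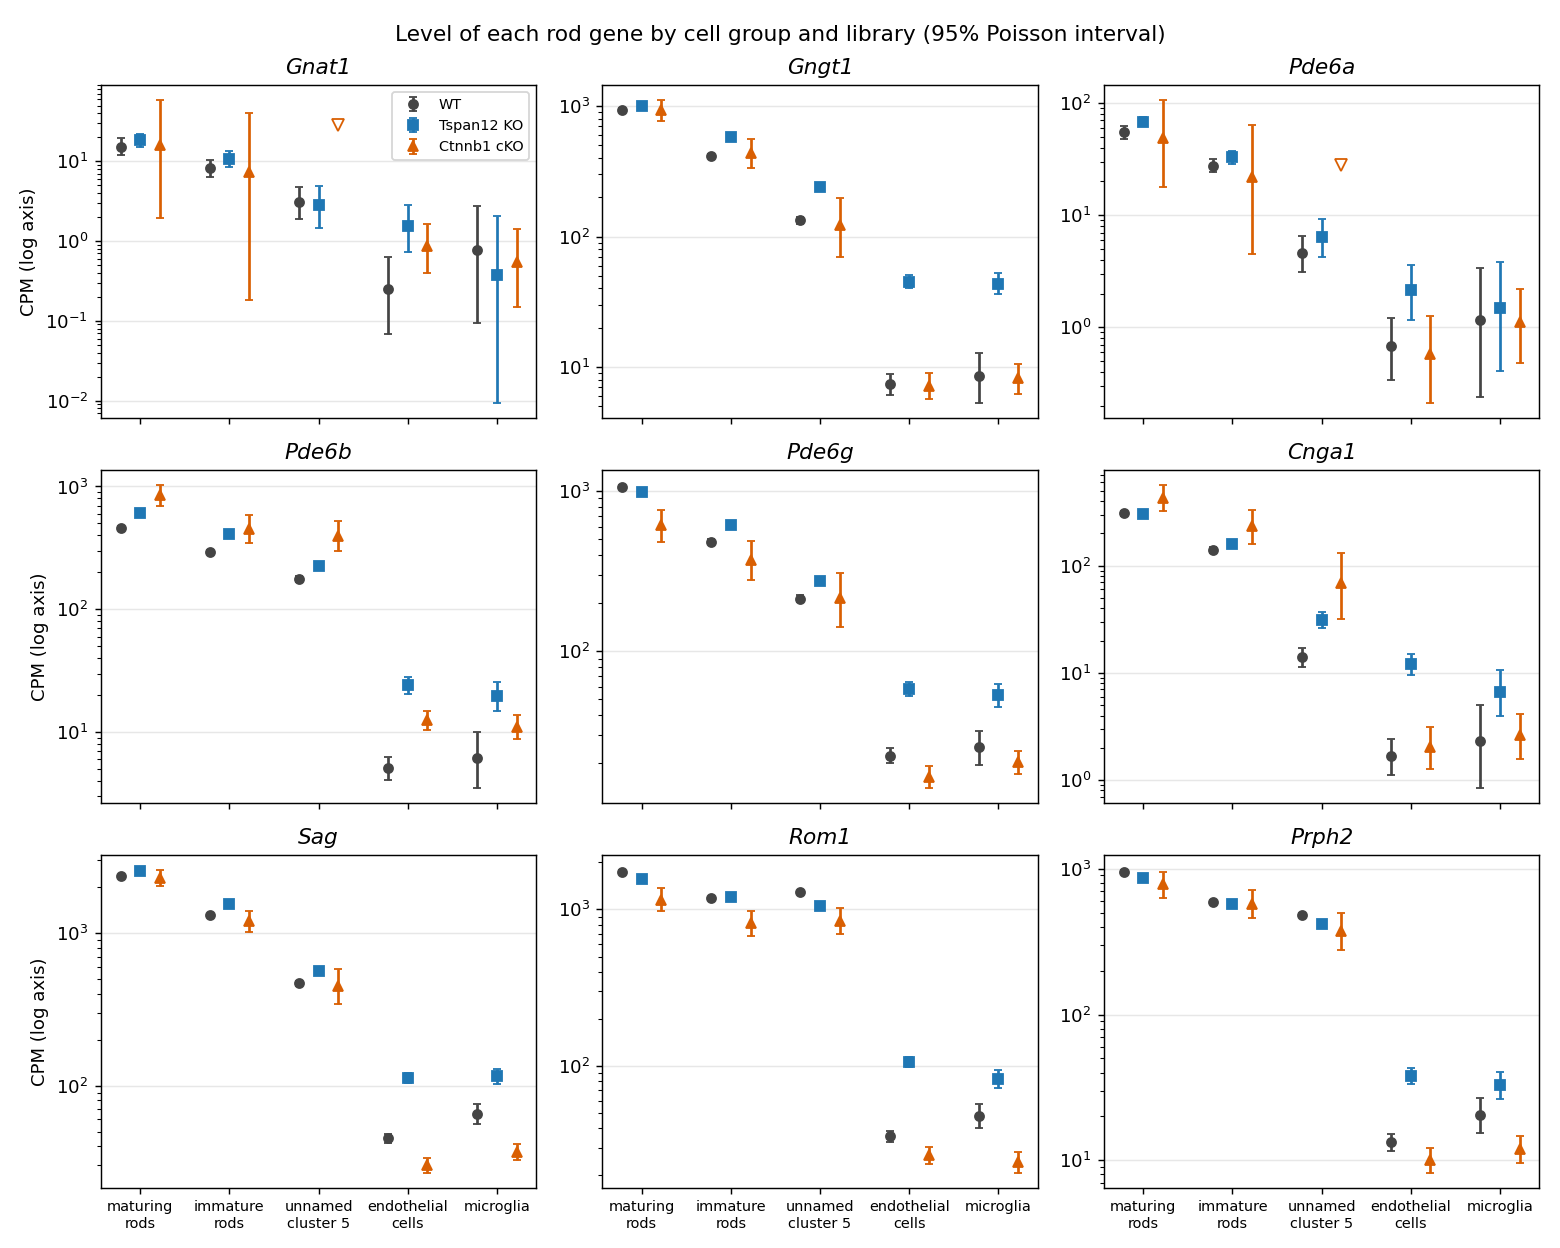
Level of each of the 9 members (CPM, logarithmic axis) in maturing rods, immature rods, unnamed cluster 5, ECs and microglia, by library. Error bars are 95% exact Poisson intervals, open downward triangles mark the upper limit where no UMI was counted, and maturing rods lie above immature rods, with ECs and microglia far below both.

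Maturing rods carried more of every member than immature rods of the same library. In the WT library the log2 ratio of CPM was 1.17 (1.10 to 1.23) for *Gngt1*, 1.14 (1.02 to 1.25) for *Cnga1*, 1.13 (1.07 to 1.19) for *Pde6g*, 0.98 (0.70 to 1.25) for *Pde6a*, 0.90 (0.38 to 1.43) for *Gnat1* and 0.85 (0.81 to 0.89) for *Sag*. *Prph2* (0.68, 0.62 to 0.74), *Pde6b* (0.64, 0.55 to 0.73) and *Rom1* (0.57, 0.52 to 0.61) were the closest between the states. Thus 3 of 9 members were past a log2 ratio of 1, which 0.739% of the 11499 genes with at least 50 UMIs exceeded in that direction and 3.57% in the other. At a log2 ratio of 0.5 it was 9 of 9, against 7.61% of all genes higher and 11.5% lower. The median of the members was 0.90 against -0.02 for all genes counted. Maturing rods were defined by other rod genes known to rise together, so a higher member level there is not independent of how the states were drawn, although the members took no part in it.

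The same direction held in the other 2 libraries. In Tspan12 KO the ratios ran from 0.40 (0.36 to 0.44) for *Rom1* to 1.05 (0.83 to 1.28) for *Pde6a*, the only 1 of 9 past the fold (0.665% of all genes were past it higher and 3.25% lower), with a median of 0.71. At 0.5 it was 8 of 9 (6.43% higher and 10% lower of all genes). In Ctnnb1 cKO they ran from 0.44 (-0.01 to 0.89) for *Prph2* to 1.16 (-1.07 to 3.78) for *Pde6a* and 1.16 (-3.11 to 7.04) for *Gnat1*, and 1 of the 7 members with at least 50 UMIs, *Gngt1* at 1.08 (0.62 to 1.56), was past the fold (2.72% of all genes higher, 5.94% lower), and 5 of 7 at 0.5 (17.7% higher, 15.5% lower). With the members allowed among the genes that formed the clusters no member was past the fold in any library, and with rods split at the median score none was in WT. *Gnat1* in WT was at -0.44 when rods were thinned to 1500 UMIs. Under other ways of defining the rods the direction of *Rom1* and *Prph2* was not stable. *Pde6g* also turned, to -0.0485 in Tspan12 KO and -0.13 in Ctnnb1 cKO, and *Pde6b* to -0.17 in Ctnnb1 cKO. When unnamed clusters were joined to the rods and split at resolution 0.5, *Rom1* was at -0.60 and *Prph2* at -0.15 in the WT library. The states there hold other cells than those reported. The 723 WT immature cells came from a subcluster with a median of 1450.5 UMIs. A subcluster with a median of 9683 UMIs, with 638 WT cells, counted as maturing. *Cnga1*, *Gngt1*, *Sag* and *Pde6a* stayed above 0 in all 3 libraries under every alternative that gave a value, *Cnga1* between 0.61 and 3.91 in WT.

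**Figure D2:**
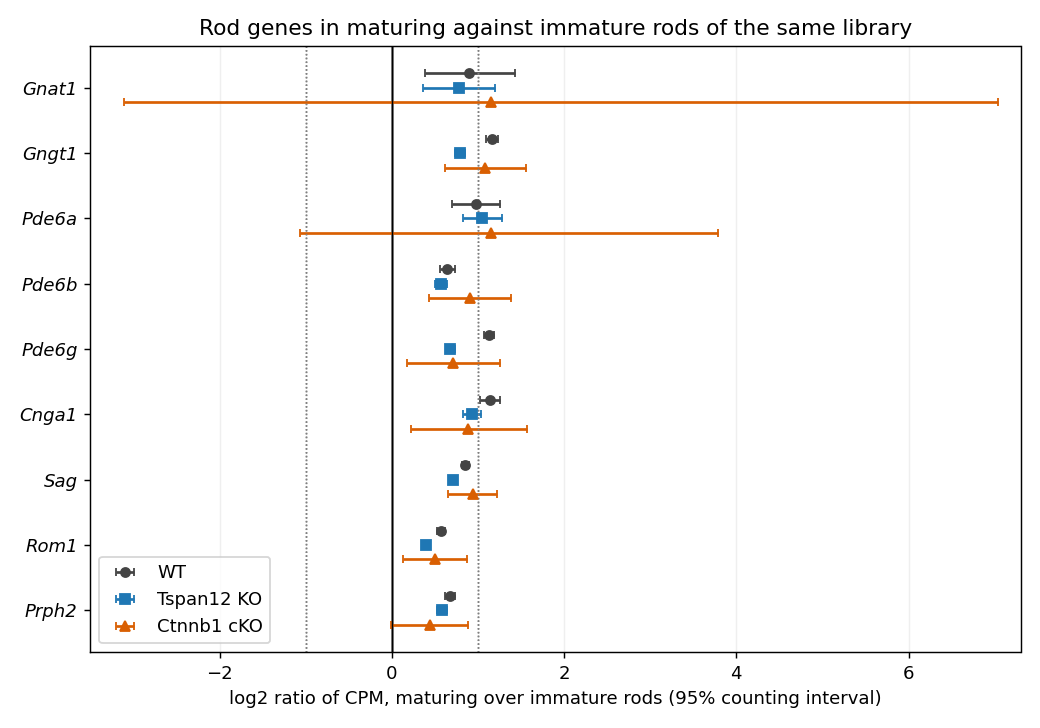
Log2 ratio of CPM in maturing over immature rods for each member and library, with 95% counting intervals. The solid line marks 0 and the dotted lines a log2 ratio of 1 in size; every point lies above 0, and in WT *Gngt1*, *Cnga1* and *Pde6g* are the highest and *Rom1* is the lowest.

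Other rod phototransduction genes took the same direction. Of 20 partner genes, 18 had at least 50 UMIs in the WT comparison, 16 of them were above 0 and 3 were past the fold, with a median of 0.71. Among all genes 0.739% were past it higher and 3.57% lower. The highest partner genes were *Rcvrn* (recoverin, a calcium sensor) at 1.19 and *Gucy2f* (a guanylate cyclase that remakes cyclic GMP) at 1.19, and the lowest was *Abca4* (a disc lipid transporter) at -0.17. In Tspan12 KO 18 of 19 were above 0 and 2 past the fold (0.665% of all genes higher, 3.25% lower). None of the 5 cone counterpart genes with enough UMIs was past it in WT or Tspan12 KO, with medians of -0.03 and -0.07. Of 9 photoreceptor precursor genes, 8 were below 0 in WT and 2 were past the fold in that direction, *Sox4* at -1.82 and *Neurod4* at -1.64.

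A grading of the cells by score rather than by subcluster gave the same direction for 7 members in WT and Tspan12 KO. It uses the same 17 genes that told the rod states apart, so it is no independent measure of them. The 3385 rods with at least 1500 UMIs were thinned to 1500 UMIs and divided into 4 parts by their summed UMIs of the maturing rod list. From the lowest to the highest part the log2 ratio in the WT library was 1.14 for *Cnga1*, 1.04 for *Gngt1*, 1.01 for *Pde6g*, 0.96 for *Pde6b*, 0.82 for *Sag*, 0.79 for *Prph2* and 0.47 for *Rom1*. In Tspan12 KO it was 0.96 for *Cnga1*, 0.72 for *Sag*, 0.70 for *Pde6g*, 0.63 for *Pde6b*, 0.57 for *Gngt1*, 0.46 for *Prph2* and 0.23 for *Rom1*. *Cnga1* thus had the highest and *Rom1* the lowest value among these 7 in both libraries. The *Cnga1* intervals (0.74 to 1.57 in WT, 0.64 to 1.27 in Tspan12 KO) overlapped those of other members, so its rank is not settled. *Rom1* rose in 2 of 3 steps between the parts in WT and in 1 of 3 in Tspan12 KO. The rarer *Gnat1* was at 0.68 (-1.38 to 3.23) in WT and 1.03 (-0.14 to 2.18) in Tspan12 KO, and *Pde6a* at 0.49 (-0.54 to 1.60) and 0.93 (0.21 to 1.64). In Ctnnb1 cKO, with 11 cells in the lowest and 19 in the highest part, *Pde6g* (1.74, 0.19 to 3.73) and *Sag* (1.27, 0.51 to 2.10) had intervals above 0, *Prph2* was at -0.37 (-1.55 to 0.84), and the intervals of the other members with a value reached 0.

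Single cells held several members at once. After thinning to 1500 UMIs, 84.0% of 689 WT maturing rods held UMIs of 4 or more members, against 54.8% of 363 immature rods, with 55 and 0 shallower cells left out. The Tspan12 KO values were 85.8% of 925 and 55.8% of 453, with 583 and 3 shallower cells left out, and those of Ctnnb1 cKO were 91.7% of 24 cells and 80% of 10. In ECs the share was 0.4%, 4.3% and 0.1%. It was not particular to the 2 rod states. Cones gave 64.6% of 65, 75.9% of 278 and 57.9% of 19 cells, above the immature rods in WT and Tspan12 KO. The larger rod subcluster left out of both states gave 88.1%, 84.7% and 91.3%. By gene, 91.4% (89.1 to 93.4) of the WT maturing rods had a *Sag* UMI and 34.1% (30.6 to 37.8) a *Cnga1* UMI, against 78.5% (73.9 to 82.6) and 16.5% (12.9 to 20.8) of the immature rods. ECs of the same library, thinned alike, gave 7.05% and 0.38%. Without thinning, 56.7% of maturing and 66.7% of immature WT rods had a *Cnga1* UMI, the reverse of the thinned order, and the immature rods were the deeper by more than 3 times.

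**Figure D3:**
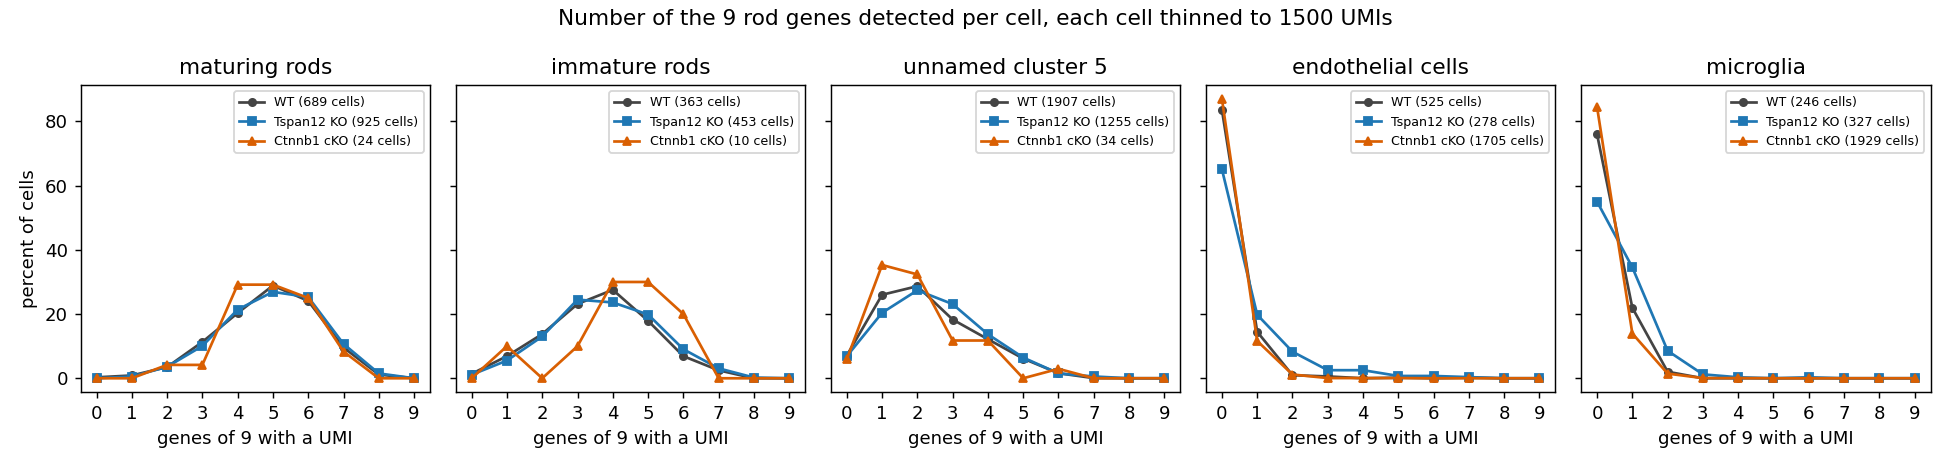
Share of cells with a UMI of 0 to 9 members after each cell was thinned to 1500 UMIs, by group of cells and library. Maturing rods centre on more members than immature rods, and ECs and microglia hold few.

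Rod gene UMIs in ECs and microglia, which are not known to make these genes, were taken as a measure of free RNA. Remaining doublets also carry rod UMIs and were not told apart from it. Summed over the 9 members, ECs carried 1.66%, 5.01% and 1.5% of the level of maturing rods in the WT, Tspan12 KO and Ctnnb1 cKO libraries, and microglia 2.25%, 4.47% and 1.64%. The Tspan12 KO library thus had the highest share in both cell types. Without doublet removal ECs and microglia together carried 3.42%, 10.4% and 4.33%. In that setting the clusters were drawn anew and the cells called maturing rods were 403, 1188 and 5. Those rods include cells like the reported immature ones, so doublets were not the only change. Their part in the higher values was not tested. By gene in WT ECs the share ran from 0.545% for *Cnga1* to 2.10% for *Pde6g*. The rod states of each library lie far above this level, and subtracting it turned the sign of 1 value in the 7 comparisons of rods, *Rom1* in immature Tspan12 KO against WT rods, from 0.02 to -0.06. Markers of the enriched cells were counted in the rods in turn. The summed CPM of 9 microglial markers in maturing rods was 143, 113 and 741 and that of 10 endothelial markers 157, 70.7 and 277, so the Ctnnb1 cKO rods held more of both, with *P2ry12* and *Tmem119* at 0 among the microglial markers there. Their part in the differences between libraries was not tested.

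In Tspan12 KO against WT no member was past the fold in either state. In maturing rods the log2 ratios were 0.42 (0.34 to 0.49) for *Pde6b*, 0.32 (0.10 to 0.55) for *Pde6a*, 0.26 (-0.18 to 0.70) for *Gnat1*, 0.11 (0.07 to 0.14) for *Sag*, 0.09 (0.03 to 0.15) for *Gngt1*, -0.01 (-0.11 to 0.09) for *Cnga1*, -0.11 (-0.16 to -0.06) for *Pde6g*, -0.14 (-0.19 to -0.08) for *Prph2* and -0.15 (-0.19 to -0.11) for *Rom1*. Thus 0 of 9 members were past a log2 ratio of 1, against 0.516% of the 11232 genes counted that were higher and 1.04% that were lower, and 0 were past 0.5 (6.22% and 7.43% of all genes). In immature rods the ratios were higher for most members, 0.49 (0.41 to 0.57) for *Pde6b*, 0.47 (0.40 to 0.53) for *Gngt1*, 0.34 (0.28 to 0.40) for *Pde6g* and 0.26 (0.22 to 0.29) for *Sag*, while *Rom1* (0.02) and *Prph2* (-0.04) stayed near 0. Here too 0 of 9 were past the fold, against 0.8% higher and 1.11% lower among 11871 genes, and 0 past 0.5 (6.8% and 8.24%). *Pde6b* was the member with the largest ratio in both states. The sign of *Pde6g* in maturing rods depended on how the rods were defined, with 0.13 for a split at the median score and 0.18 without doublet removal. In the latter, 279 of 403 WT and 377 of 1188 Tspan12 KO cells called maturing came from 1 subcluster. That subcluster shared most of its leading genes with the reported immature rods, so 0.18 is not a value of the maturing state alone. The spread between libraries of 1 genotype is not known, so none of these differences can be set against it.

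Of the partner genes in maturing rods of Tspan12 KO, 1 of 19 was past the fold, *Guca1a* (a calcium sensor of guanylate cyclase) at 1.12 (0.47 to 1.83), and the lowest was *Rbp3* at -0.19. Among all genes 0.516% were past the fold higher and 1.04% lower. The median of the partner genes was 0.24. Among 5 cone counterparts, *Pde6h*, the cone inhibitory subunit, was at 1.45 (1.06 to 1.87) and the other 4 were below 0.

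In Ctnnb1 cKO against WT the comparison rests on 24 maturing and 10 immature rods. *Pde6b* was higher, at 0.89 (0.59 to 1.17), and *Cnga1* at 0.49 (0.06 to 0.89), while *Pde6g* at -0.79 (-1.14 to -0.47) and *Rom1* at -0.59 (-0.84 to -0.35) were lower. *Sag* (-0.04), *Gngt1* (-0.01) and *Prph2* (-0.28, -0.59 to 0.01) had intervals that reached 0, as did *Pde6a* and *Gnat1*, whose intervals span several log2 units. No member was past the fold, against 5.88% of 9121 genes that were higher and 19.6% that were lower. At 0.5 it was 1 higher and 2 lower, against 18% and 35.4% of all genes. In immature rods the order was alike, with *Cnga1* at 0.74 (0.18 to 1.25), *Pde6b* at 0.62 (0.24 to 0.99), *Pde6g* at -0.38 (-0.81 to 0.02) and *Rom1* at -0.52 (-0.81 to -0.25), and again none past the fold (8.24% higher and 18.6% lower of 10525 genes). At 0.5 it was 2 higher and 1 lower, against 21.4% and 32.6%. *Cnga1* in maturing rods was at -0.46 when each rod was thinned to 1500 UMIs, while *Pde6b* stayed between 0.66 and 1.09 under every alternative run there. In immature rods *Pde6b* was at -2.28 under 1 of them, in a group of 258 Ctnnb1 cKO cells with 2 of the 17 maturing rod genes detected and with *Mybl1*, *Gadd45g* and *Vxn* as its leading genes, which also lead the neurogenic precursor cluster, so that value is not one of an immature rod state. A scaling that does not follow the total (TMM) shifted these comparisons by -0.10 and -0.13. The 2 knockouts share the WT library, so their ratios are not independent of each other.

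**Figure D4:**
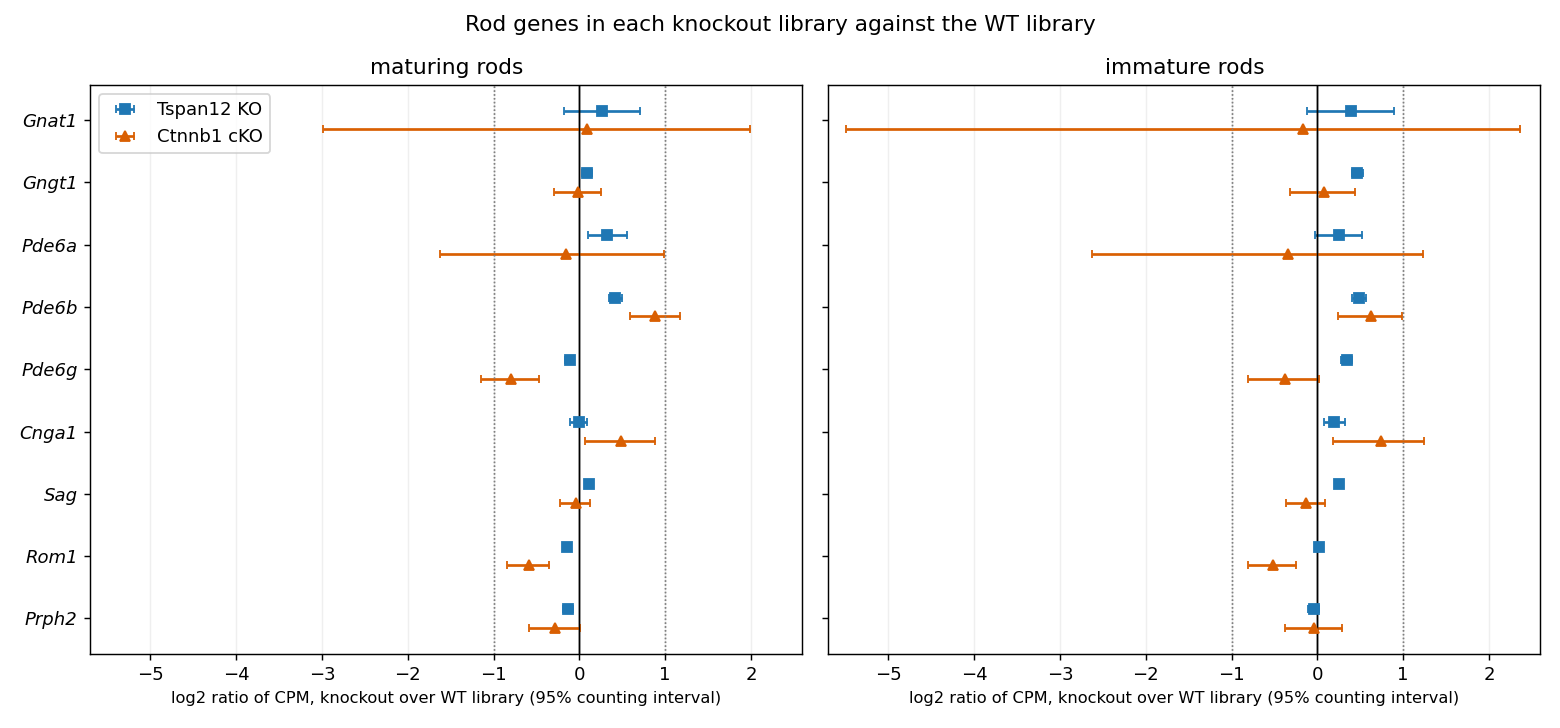
Log2 ratio of CPM of each knockout library over the WT library for each member, in maturing and in immature rods, with 95% counting intervals. The solid line marks 0 and the dotted lines a log2 ratio of 1 in size; no point lies past a dotted line, and the Ctnnb1 cKO intervals are the widest.

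Of the 17 partner genes counted in Ctnnb1 cKO maturing rods, 2 were past the fold in each direction, against 5.88% of all genes higher and 19.6% lower. In counts simulated for this comparison, 12% of the genes left unchanged were past the fold. *Rdh8* (a retinol dehydrogenase) was at 2.67 (1.65 to 3.57), from 12 UMIs. *Unc119* (a lipid-binding protein that carries transducin) was at -1.37 (-1.76 to -1.01). The median of the partner genes was -0.01 against -0.10 for all genes counted. The cone counterpart *Gnb3* was at -1.67 (-2.38 to -1.04).

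Among the member UMIs, *Pde6b* also took a larger share in other cells of the knockout libraries. It made up 5.81% (5.57 to 6.06) in the maturing rods of the WT library. The Tspan12 KO value was 7.68% (7.46 to 7.90), and that of Ctnnb1 cKO was 11.9% (9.83 to 14.2). In ECs, where rod UMIs are taken as free RNA, the shares were 3.88% (3.1 to 4.79), 6.04% (5.16 to 7.02) and 11.7% (9.88 to 13.8), in the same order. Bipolar cells gave 5.83%, 7.23% and 13.8%, amacrine cells 5.88%, 6.65% and 15.5%, and microglia 3.48%, 5.54% and 9.50%.

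Members were also read in the cells that no rule named. The larger rod subcluster left out of both states carried 9209, 8306 and 8128 CPM of the 9 members together, above the maturing rods of each library (7894, 7974 and 7120), in shallower cells with median UMIs of 2264, 1293 and 1302. Unnamed cluster 5, which held 2034 WT and 1882 Tspan12 KO cells, carried 2789 and 2811 CPM of the 9 members together, against 7894 and 7974 in maturing rods. Relative to maturing rods of the same library its level was 74.1% and 66.6% for *Rom1*, 50.8% and 48.0% for *Prph2*, and 38.6% and 36.4% for *Pde6b*, but 4.5% and 10.2% for *Cnga1*, 8.3% and 9.4% for *Pde6a* and 19.8% and 22.2% for *Sag*. The disc rim genes were thus the members nearest to the rod level there in both libraries, and the furthest was *Cnga1* in WT and *Pde6a* in Tspan12 KO. After thinning, 82.4% (80.6 to 84.1) of its WT cells had a *Rom1* UMI and 1.36% (0.89 to 1.99) a *Cnga1* UMI. Another unnamed cluster, 24, held 1716 of its cells in the Ctnnb1 cKO library and 30 in WT, and reached 97.5% of the maturing rod level for *Rom1* and 27.9% for *Cnga1* in Ctnnb1 cKO. A cluster mostly of 1 library may be that library and not a cell type.

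Across the named classes of the WT library the members together were at 7894 CPM (7812 to 7977) in maturing rods, 5466 (5342 to 5593) in cones, 4451 (4403 to 4500) in immature rods, 2498 (2468 to 2528) in bipolar cells and 1639 (1610 to 1668) in amacrine cells. These intervals do not overlap. Müller glia, microglia and ECs were lower, at 164 (152 to 177), 178 (162 to 195) and 131 (126 to 137) CPM, and the intervals of Müller glia and microglia overlapped. The values in cones came from 71 cells with a median of 12462 UMIs, and the medians of bipolar and amacrine cells were 7303 and 5671 UMIs. These classes were deeper than the maturing rods (4159). A bipolar cluster had a median of 23642.5 UMIs over all libraries, 7.78 times the median of the library. Remaining doublets with rods were not told apart in these classes, and rod genes there were not examined further.

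The genes with the most similar profile over 30 combinations of class and library were sought among 1382 non-member genes, by Pearson's r on log2(CPM + 1) with the mean of the members. The highest were *Nrl* at 0.98, *Rpgrip1*, *Cdhr1*, *Ppp2r2b* and *Ebpl*, followed by *Pex5l*, *Pdc* and *Nr2e3*. *Nrl*, *Nr2e3* and *Cdhr1* are among the markers or maturation genes that defined the rods, so their likeness is partly built in. The correlations are over profiles that share libraries and are a description.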

How the data were processed

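Single-cell RNA was measured with 10x 3′ chemistry in 3 libraries, WT, Tspan12 KO and Ctnnb1 cKO, 1 per genotype. The authors deposited filtered matrices of UMI counts per gene and barcode, made with Cell Ranger (8.0.1 per the file headers) on GRCm39 per the labels. Totals were 92684519, 137114957 and 37008362 UMIs, and the rods of the last are the fewest.

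Barcodes under 250 genes or 500 UMIs, or over 15% mitochondrial UMIs, were dropped, and doublets were removed at 0.8% per 1000 cells by Scrublet score (760, 1656 and 665 cells). Scrublet's automatic threshold called 0, 1 and 343. Cells were clustered with scanpy 1.11.5 (2000 variable genes without the members and partner genes, 30 components, Leiden at resolution 1, rods again at 0.5) with no batch integration. Clusters were named from marker lists and the rods split by the sign of a maturing rod list. This rule left many cells with rod markers unnamed, so 6 wider or other definitions were added after the member levels of the clusters had been seen. The members and lists were chosen with earlier results of these data known. The named genes are the 9 members, the highest and lowest genes of each list in a comparison (at most 4), the 10 genes of most similar profile, of which 2 are not reported here, and the targeted genes.

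UMIs were summed per library and group. Levels are CPM with exact Poisson intervals, ratios have exact conditional binomial intervals and shares Clopper-Pearson intervals, all at 95% and for counting error only. No test was run across 1 library per genotype. A gene was past the fold at a log2 ratio of 1 or more in size, among genes with at least 50 UMIs in both groups together. Ratio scripts were tested on simulated data. TMM factors came from edgeR 4.0.16 in R 4.3.3. Promoters are from RefSeq on GRCm38.p6, another build than that of the counts, and no coordinate was carried over. Other scalings, filters, splits and thinning depths were tried as alternatives.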

Additional observations from a re-analysis of the deposited data

Results flagged for a closer look

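*Pde6g*, the inhibitory phosphodiesterase subunit, was flagged because its Tspan12 KO to WT ratio pointed in opposite directions in the 2 rod states. The log2 ratio was -0.11 (-0.16 to -0.06) in maturing rods, from 981 against 1060 CPM, and 0.34 (0.28 to 0.40) in immature rods, from 613 against 484 CPM. The difference between the states was not tested, since each genotype has 1 library. In maturing rods the ratio was above 0 under several other definitions of the rods, between -0.49 and 0.21 over all alternatives run. Some of these definitions place other cells in the maturing state.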

How the results depend on the processing

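In Tspan12 KO against WT maturing rods no member with at least 50 UMIs was past the fold of 1 under any alternative run. *Gnat1*, with fewer, reached 1.35 with rods thinned to 1500 UMIs, and *Pde6b* kept its direction, between 0.25 and 0.57. Of the values that summarise a comparison, 255 stayed close to those reported and 94 moved. Of the values of single members 30 changed sign from a reported value whose counting interval left out 0. Another 80 changed sign from a value whose interval reached 0, so 110 did in all, and their values are given below only for the 30. The 6 definitions named as wider rods and as kept subclusters were chosen after the member levels of the clusters had been seen. These definitions, and the clustering without doublet removal, place other cells in the states than those reported. The cause of each change was not tested. A knockout named alone stands for its comparison with WT, and states for maturing against immature rods.

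For maturing Tspan12 KO the median was 0.19 with no doublet removal, 0.29 with rods split at the median score, 0.26 with wider rods at resolution 0.5, 0.28 with wider whole clusters split at 0 and 0.28 with wider whole clusters split at 0.5. For immature Tspan12 KO the median was 0.53 with rod subclusters within each library, 0.0614 with wider rods at resolution 0.5 and 0.52 with wider whole clusters split at 0. For maturing Ctnnb1 cKO the median was 0.30 with no doublet removal and 0.27 with wider rods at resolution 1. For immature Ctnnb1 cKO the median was 0.45 with members and partners among the variable genes, 0.52 with rod subclusters within each library and -3.09 with wider rods within each library. Neither of the last 2 describes an immature state. The first is all 89 Ctnnb1 cKO rods, which were not split, and the second a group of 258 cells with 2 of 17 maturing rod genes detected and *Mybl1*, *Gadd45g* and *Vxn* as its leading genes. The same holds for the other values of immature Ctnnb1 cKO under these settings. For the WT states the median was 0.46 with members and partners among the variable genes, 0.50 with rods split at the median score, 0.46 with wider rods at resolution 0.5, 1.24 with wider whole clusters split at 0 and 1.87 with wider whole clusters split at 0.5. For the Tspan12 KO states the median was 0.23 with members and partners among the variable genes, 0.61 with the mean over cells, 0.75 with free RNA subtracted, 0.81 with rod subclusters at resolution 1, 0.39 with rod subclusters within each library, 0.44 with rods split at the median score, 0.51 with wider rods at resolution 0.5, 0.92 with wider rods at resolution 1, 0.85 with wider whole clusters split at 0 and 1.77 with wider whole clusters split at 0.5. For the Ctnnb1 cKO states the median was 0.17 with members and partners among the variable genes, 1.40 with wider rods at resolution 1 and 1.44 with wider whole clusters split at 0.5.

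The counts of members past the fold below have no share of all genes beside them. That share is given above for the reported settings and the threshold of 0.5 only. A count under any other setting therefore cannot be read as many or few. In Ctnnb1 cKO against WT it was 5.88% higher and 19.6% lower in maturing rods. Some Ctnnb1 cKO groups are very small, with 5 maturing cells with no doublet removal. Wider rods at resolution 1 gave 13 maturing and 4 immature cells there. In immature Tspan12 KO the members past the fold and higher were 1 with wider rods at resolution 0.5, 1 with wider whole clusters split at 0 and 1 with wider whole clusters split at 0.5. In maturing Ctnnb1 cKO the members past the fold and higher were 1 with no doublet removal, 2 with rod subclusters at resolution 1, 2 with rods split at the median score, 1 with the left-out subclusters kept, 1 with wider rods at resolution 0.5, 1 with wider rods at resolution 1 and 1 with a threshold of 0.5. In immature Ctnnb1 cKO the members past the fold and higher were 2 with members and partners among the variable genes, 1 with rods thinned to 1500 UMIs, 4 with rod subclusters within each library, 2 with wider rods at resolution 0.5, 1 with wider rods at resolution 1, 2 with wider whole clusters split at 0, 2 with wider whole clusters split at 0.5 and 2 with a threshold of 0.5. In the WT states the members past the fold and higher were 0 with members and partners among the variable genes, 5 with rod subclusters at resolution 1, 0 with rods split at the median score, 6 with wider whole clusters split at 0, 7 with wider whole clusters split at 0.5 and 9 with a threshold of 0.5. In the Tspan12 KO states the members past the fold and higher were 0 with members and partners among the variable genes, 2 with rods thinned to 1500 UMIs, 2 with the mean over cells, 3 with rod subclusters at resolution 1, 0 with rod subclusters within each library, 0 with rods split at the median score, 0 with the left-out subclusters kept, 3 with wider rods at resolution 0.5, 4 with wider rods at resolution 1, 4 with wider whole clusters split at 0, 7 with wider whole clusters split at 0.5 and 8 with a threshold of 0.5. In the Ctnnb1 cKO states the members past the fold and higher were 2 with TMM scaling, 0 with members and partners among the variable genes, 0 with the mean over cells, 2 with rod subclusters at resolution 1, 2 with wider rods at resolution 0.5, 4 with wider rods at resolution 1, 4 with wider whole clusters split at 0.5 and 5 with a threshold of 0.5. Those lower in maturing Ctnnb1 cKO were 2 with a threshold of 0.5. Those lower in immature Ctnnb1 cKO were 1 with rod subclusters at resolution 1, 3 with wider rods at resolution 1, 9 with wider rods within each library and 1 with a threshold of 0.5.

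*Gngt1* turned sign at -0.00811 in maturing Tspan12 KO with members and partners among the variable genes, -0.20 in maturing Tspan12 KO with the mean over cells and -0.0589 in maturing Tspan12 KO with wider rods within each library. *Pde6g* turned sign at 0.18 in maturing Tspan12 KO with no doublet removal, 0.13 in maturing Tspan12 KO with rods split at the median score, 0.17 in maturing Tspan12 KO with wider rods at resolution 0.5, 0.21 in maturing Tspan12 KO with wider whole clusters split at 0, 0.21 in maturing Tspan12 KO with wider whole clusters split at 0.5, -0.00770 in immature Tspan12 KO with wider rods at resolution 0.5, -0.0485 in the Tspan12 KO states with members and partners among the variable genes and -0.13 in the Ctnnb1 cKO states with members and partners among the variable genes. *Prph2* turned sign at 0.0289 in maturing Tspan12 KO with no doublet removal, 0.00158 in maturing Tspan12 KO with wider whole clusters split at 0, 0.00158 in maturing Tspan12 KO with wider whole clusters split at 0.5 and -0.15 in the WT states with wider rods at resolution 0.5. *Pde6a* turned sign at -0.0173 in maturing Tspan12 KO with wider rods within each library. *Sag* turned sign at -0.0399 in maturing Tspan12 KO with wider rods within each library. *Rom1* turned sign at 0.00184 in maturing Tspan12 KO with wider whole clusters split at 0, 0.00184 in maturing Tspan12 KO with wider whole clusters split at 0.5, -0.60 in the WT states with wider rods at resolution 0.5, -0.0159 in the WT states with wider whole clusters split at 0, -0.0779 in the Tspan12 KO states with members and partners among the variable genes, -0.0700 in the Tspan12 KO states with wider rods at resolution 0.5, -0.0539 in the Ctnnb1 cKO states with members and partners among the variable genes and -0.46 in the Ctnnb1 cKO states with wider rods at resolution 0.5. *Cnga1* turned sign at -0.46 in maturing Ctnnb1 cKO with rods thinned to 1500 UMIs and -2.68 in immature Ctnnb1 cKO with wider rods within each library. *Pde6b* turned sign at -2.28 in immature Ctnnb1 cKO with wider rods within each library and -0.17 in the Ctnnb1 cKO states with wider rods at resolution 0.5. *Gnat1* turned sign at -0.44 in the WT states with rods thinned to 1500 UMIs.

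Free RNA without doublet removal was 3.42% (WT), 10.4% (Tspan12 KO) and 4.33% (Ctnnb1 cKO) of the maturing rod level. The maturing rods of that setting are other cells than those reported, and only 5 in Ctnnb1 cKO. Thinned to 1000 UMIs, cells with 4 or more members were 62.5% of maturing WT rods, 32.8% of immature WT rods, 62.3% of maturing Tspan12 KO rods, 40.3% of immature Tspan12 KO rods, 54.2% of maturing Ctnnb1 cKO rods and 10% of immature Ctnnb1 cKO rods. At 2500 UMIs they were 96.3% of maturing WT rods, 83.4% of immature WT rods, 98.1% of maturing Tspan12 KO rods, 82% of immature Tspan12 KO rods, 90.5% of 21 maturing Ctnnb1 cKO rods and 100% of 10 immature Ctnnb1 cKO rods, the reverse of the order at 1500 UMIs in that library. Without doublet removal no subcluster was called immature, so comparisons of immature rods have no value there. The maturing rods of that setting include a subcluster of 279 WT and 377 Tspan12 KO cells. It shares most of its leading genes with the reported immature rods. Clustering within each library gave no maturing rods in Ctnnb1 cKO, and with the wider rods several comparisons have no value. No paired analysis was possible because each genotype has 1 library, and no replicate was there to leave out. In Ctnnb1 cKO the 24 maturing and 10 immature rods held 1 to 6 UMIs of *Gnat1* and *Pde6a* in each state.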
